A study of Amphiprion ocellaris with 30 samples.

Results

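The 190 genes described here are the non-mitochondrial members of the 200 genes with the highest mean value over 30 libraries of clownfish larvae, out of 22816 genes in the deposited table. The members were chosen by their level alone: genes were ranked by the mean of their deposited values over all 30 libraries, and the 10 mitochondrial IDs among the first 200 were left out. A gene was taken as mitochondrial where the number in its Ensembl ID was 40 or lower, and no annotation was at hand to check that split. The levels below are therefore a description. The tests of differences between groups are not free of the choice either, since a gene high in some groups can enter the ranking through them: the mean was below that at rank 200 in SR9243 libraries for 3 members, in T3 libraries for 28 and in DMSO libraries for 23. The mean at rank 200 was 12.65 and that at rank 201 was also 12.65 on the deposited scale, so no gap in level sets the members apart.

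The libraries came from entire wild-type larvae of Amphiprion ocellaris, the false clown anemonefish, kept at 27°C in sea water and collected on day 5 of treatment. There were 10 libraries from larvae given SR9243 at 1e-07 M, 10 from larvae given T3 at 1e-07 M, and 10 from larvae given the solvent DMSO at 0.0001%. The labels do not say whether SR9243 and T3 larvae also received the solvent, whether a library is 1 larva, or which beaker or clutch it came from. P-values therefore measure the spread between libraries, which may be partly technical. The T3 sample titles carry the tag IOP, which is not explained. If it marks a further treatment of these larvae, that cannot be told apart from T3 here. The T3 columns of the table are headed TH, read here as thyroid hormone. Values are variance-stabilised normalised counts, close to log2 at the high levels of these genes, and each difference between groups is given in the same log2-like units, with a standard error (SE).

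T3, triiodothyronine, is the active thyroid hormone. It binds nuclear thyroid hormone receptors, which act on DNA as transcription factors, and it drives the change from larva to juvenile in fish and from tadpole to frog in amphibians. SR9243 acts against LXR, per the series title. LXR, or liver X receptor, belongs to the same class of receptors, responds to oxysterols and controls cholesterol and lipid metabolism. In whole fish larvae the poly(A) transcripts at the top of such rankings generally include those for ribosomal proteins, translation factors, contractile proteins of muscle, skin keratins, lens crystallins and digestive enzymes. Which of the 190 genes belong to these classes is not known here, because the table gives Ensembl IDs only and the reference gene table paired 0 of them with a symbol. No tissue marker could be read for the same reason, and the label of entire larvae was not tested against markers. The members are therefore described by ID for the largest differences in each comparison, and otherwise by their place in the ranking.

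The members reached from 12.65 to 18.12 in mean value, with a median of 13.56 and quartiles of 13.05 and 14.31. The median gene of the whole table had a mean of 6.86. A mean of 16 or more was found for 12 members, a mean from 14 up to 16 for 51, and a mean under 14 for 127. These values follow normalised read counts, which grow with transcript length, so the order of 2 genes is not an order of molecule numbers. In all 30 libraries 105 members stood within the first 200 genes, and 159 stood within the first 400. Only 5 members fell beyond rank 1000 in some library. No member was at the lowest value of the table in any library, and all 190 passed the filter on low values.

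With 2 raised to the power of each value as a rough linear level, the members' share of the summed level of a library was computed. The share was 44.1 ± 2.11% (SD, n = 10) in SR9243 libraries, 37.0 ± 1.51% in T3 libraries and 40.7 ± 2.88% in DMSO libraries. SR9243 libraries ran from 40.6% to 46.4% with a median of 44.4%, T3 libraries from 34.6% to 39.7% with a median of 36.7%, and DMSO libraries from 33.4% to 44.3% with a median of 41.1%. All SR9243 libraries thus lay above all T3 libraries. All T3 libraries also lay below 9 of the 10 DMSO libraries. The lowest of these 9 was at 40.3%, while DMSO library 7 was at 33.4%. The 10 members with the highest means alone held 16.7 ± 1.13% in SR9243, 11.7 ± 1.14% in T3 and 13.8 ± 1.70% in DMSO libraries. No test was made on these sums, since a score over chosen members is a description. The sum over all genes moved with the share, at 12.3 ± 0.553 in SR9243, 10.8 ± 0.316 in T3 and 11.7 ± 0.562 in DMSO libraries, in units of 1e+06 on this linear scale. The mitochondrial IDs held 4.95 ± 0.562% in SR9243, 4.47 ± 0.350% in T3 and 5.15 ± 0.516% in DMSO libraries.

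**Figure D1:**
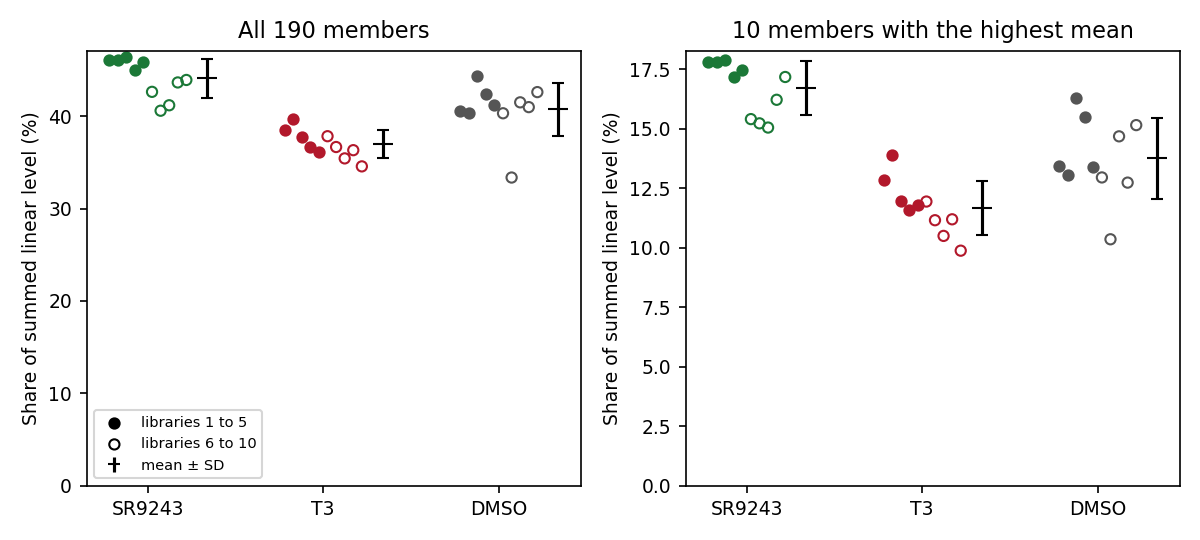
Share of the summed linear level (2 to the power of the deposited value) held by the 190 members, left, and by the 10 members with the highest means, right, in percent for each library; filled points are libraries 1 to 5, open points libraries 6 to 10, and bars the mean ± SD of 10 libraries. SR9243 libraries lie at 40.6% to 46.4% and T3 libraries at 34.6% to 39.7% for all members, with DMSO library 7 at 33.4% apart from the other DMSO libraries.

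Within SR9243 the members' share differed by library number. It was 44.9% to 46.4% in libraries 1 to 5 and 40.6% to 43.9% in libraries 6 to 10, with no overlap. In T3 the ranges overlapped, at 36.1% to 39.7% and 34.6% to 37.8%, and in DMSO they overlapped too, at 40.3% to 44.3% and 33.4% to 42.6%. The labels do not say what the numbers stand for, and whether they mark a batch was not tested.

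Ranking the genes on each treatment alone gave 190 non-mitochondrial genes each time. The SR9243 and T3 rankings had 167 genes in common (87.9% of each), the SR9243 and DMSO rankings 168 (88.4%), and the T3 and DMSO rankings 149 (78.4%). All 3 rankings shared 148 genes. The member with the highest mean held rank 1 of the whole table in all 10 SR9243 libraries, in 9 of 10 T3 libraries and in 2 of 10 DMSO libraries. In DMSO another member held rank 1 in 4 libraries and a mitochondrial ID in the remaining 4.

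T3 against DMSO asks how the larvae's most read transcripts differ after 5 days of the treatment labelled T3, with its unexplained tag IOP. Most members were lower with T3: 118 fell, 39 rose and 33 did not pass the test (limma, Benjamini-Hochberg adjusted p under 0.05 over 22615 genes, termed a call below). The members called made up 82.6% of the 190, where 50.5% of all tested genes were called. Lower calls covered 62.1% of the members against 25.8% of all tested genes, and higher calls 20.5% against 24.8%. Of the 39 members called higher, 19 had a DMSO mean below the level at rank 200, and of the 118 called lower, 25 had a T3 mean below it. For genes ranked on DMSO libraries alone, higher calls covered 11.1% and lower calls 72.1%. Since DMSO is a group of this comparison, that ranking favours genes high in DMSO and is not free of the choice either. The median member differed by -0.50, which is 0.708-fold on the linear scale, while the median over all tested genes was -0.01. With quantile normalisation the median member differed by -0.25. That scaling gives every library the same set of values, so it can shrink a shift shared by the highest genes. With library medians set equal the median member differed by -0.56, and the median over all tested genes was -0.07. In RNA from entire larvae fewer cells of a type and less RNA per cell cannot be told apart.

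The members' differences were packed together. A difference from -0.75 up to -0.5 was found for 63 members (33.2%), where 7.14% of all tested genes lay in that interval. All 63 were called lower, and they were spread over the ranking from rank 7 to rank 196. Their SD was small, with a median over these genes of 0.12 among T3 and 0.15 among DMSO libraries, and for 54 of them no T3 library reached the lowest DMSO library. The libraries' median deviations of these genes from their mean over all libraries ran from -0.53 to -0.19 with a median of -0.29 in T3, and from 0.07 to 0.49 with a median of 0.28 in DMSO. Their SR9243 differences from the same DMSO libraries ran from -0.29 to 0.25, with a median of -0.20. Because the interval was chosen after the differences were seen, these values describe it and test nothing. How many of all 1615 tested genes in the interval were called or did not overlap is not given here. The counts above therefore cannot be read as particular to the members.

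**Figure D2:**
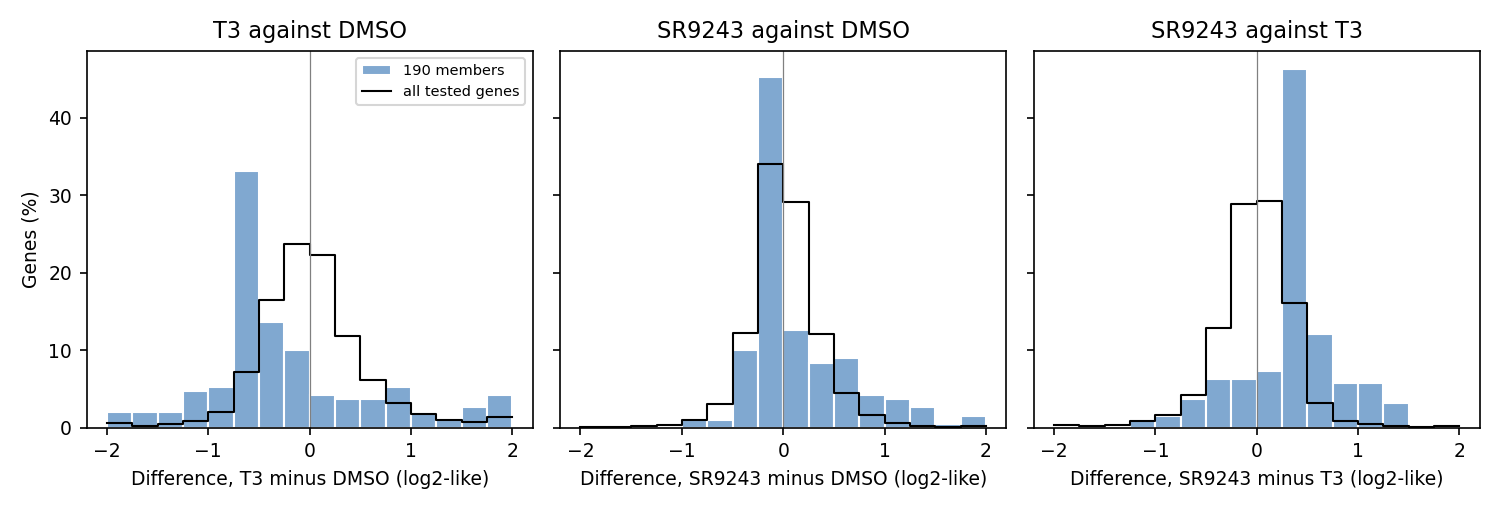
Share of genes, in percent, by the size of the difference in steps of 0.25 on the log2-like scale for the 190 members (bars) and all 22615 tested genes (line), in the 3 comparisons; differences beyond 2 in size are counted in the outermost steps. For T3 against DMSO 33.2% of the members stand between -0.75 and -0.5, for SR9243 against DMSO 45.3% stand between -0.25 and 0, and for SR9243 against T3 46.3% stand between 0.25 and 0.5.

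All 10 T3 libraries lay below all 10 DMSO libraries for 89 members (46.8%, against 4.96% of all tested genes) and above them for 19 members (10%, against 7.08%). Called decreases of at least 1 numbered 21 (11.1%, against 2.16% of all tested genes), and called increases of at least 1 numbered 19 (10%, against 4.93%). These shares are not free of the choice of members, since a gene high in a single group can enter the ranking through it. Both group means reached the level of the last rank for 93 of the 118 members called lower and 20 of the 39 called higher. How many of the large or non-overlapping differences these include is not given here. The called decreases had a median of -0.58 and the called increases a median of 0.96. Over all tested genes these medians were -0.46 and 0.56. Lower calls made up 54% of members 1 to 50, 62% of members 51 to 100 and 66.7% of members 101 to 190, against 25.8% of all tested genes. Among the 197 non-mitochondrial genes at ranks 201 to 400, 49.2% were called lower and 28.4% higher, with a median difference of -0.26.

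The 2 largest increases with T3 were in ENSAOCG00000016750 and ENSAOCG00000010791, at ranks 97 and 193. Their DMSO means of 11.24 and 10.91 lay below the level at rank 200, so both were members through the treated libraries, and their increases over DMSO are given as a description with no test. ENSAOCG00000016750 lay between 14.34 and 15.27 with a median of 15.02 in T3 libraries, against 8.43 to 13.84 with a median of 11.13 in DMSO libraries. The groups did not overlap, and the DMSO libraries were far more spread, with an SD of 1.66 against 0.29 in T3. The difference was 3.72 (SE 0.41), and 3.18 without DMSO libraries 4 and 7, of which library 4 was the lowest. ENSAOCG00000010791 lay between 13.45 and 14.17 with a median of 13.92 in T3 libraries, against 7.11 to 12.94 with a median of 11.46 in DMSO libraries. It was the most variable member in DMSO, with an SD of 1.99, and stood between rank 180 and rank 9945 of the table there. Its difference was 2.93 (SE 0.49), and 2.33 without DMSO libraries 4 and 7. For both genes the SE is pooled with narrow SR9243 libraries (SD 0.25 and 0.30), so it understates the uncertainty of this comparison.

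The 2 largest decreases with T3 were in ENSAOCG00000016029 and ENSAOCG00000005623, at ranks 128 and 124. Their T3 means of 11.48 and 12.06 lay below the level at rank 200, so they were members through the other groups, and their low T3 values are likewise a description. ENSAOCG00000016029 lay between 10.51 and 12.05 with a median of 11.53 in T3 libraries, against 13.58 to 14.65 with a median of 14.34 in DMSO libraries. Every T3 library was below every DMSO library, and the mean was lower by a difference of -2.77 or 0.147-fold (SE 0.16). ENSAOCG00000005623 lay between 11.68 and 12.27 with a median of 12.12 in T3 libraries, against 13.74 to 15.32 with a median of 14.21 in DMSO libraries. The groups did not overlap, and the difference was -2.40 (SE 0.18). These 2 genes stood outside the first 200 in every T3 library, at ranks 311 to 898 and 262 to 363, and were within it in every DMSO library.

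**Figure D3:**
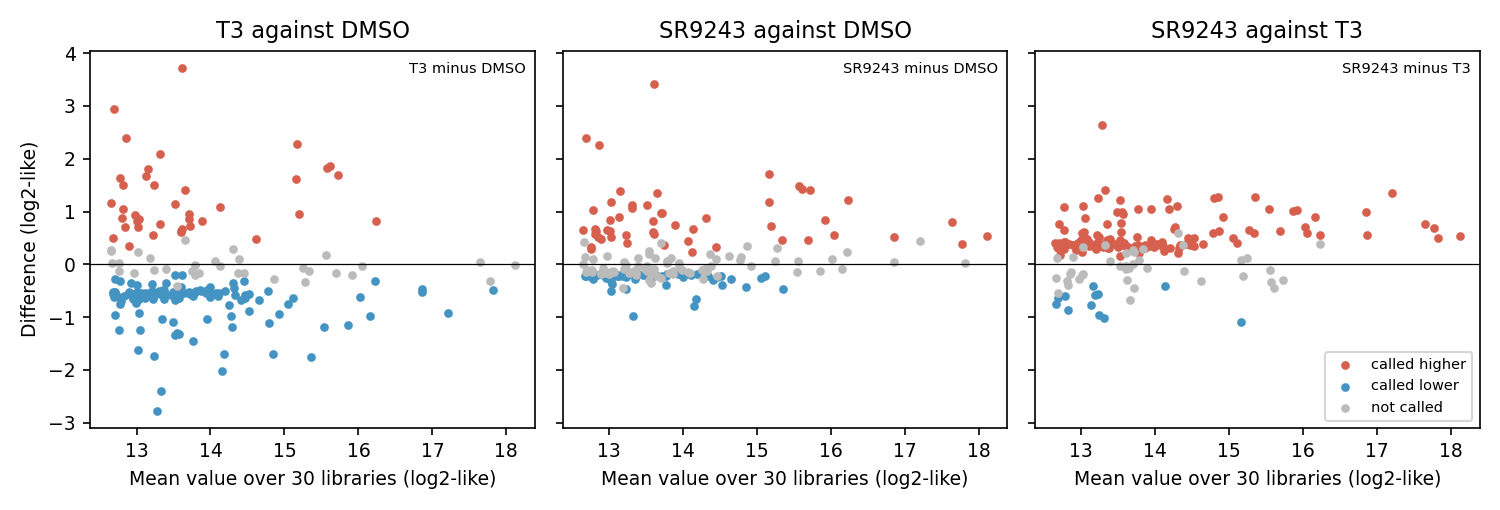
Difference between groups (vertical axis, log2-like) against the mean value over 30 libraries (horizontal axis, log2-like) for the 190 members in each comparison; red points were called higher in the first-named group, blue points called lower, and grey points not called (limma). A narrow band of blue points near -0.5 for T3 against DMSO and of red points near 0.4 for SR9243 against T3 runs over most of the range of levels.

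Of members 1 to 10, 6 fell with T3, 1 rose and 3 were not called. Over all tested genes 25.8% were called lower and 24.8% higher. The member with the highest mean of all lay between 17.59 and 18.17 with a median of 17.94 in T3 libraries, against 16.47 to 18.28 with a median of 18.10 in DMSO libraries. These ranges overlapped, and the difference was -0.01 with a 95% interval from -0.33 to 0.32 (limma adjusted p = 0.982). DMSO library 7 was at 16.47 and the next DMSO library at 17.83, so this difference rests in part on 1 library. The difference without that library is not given here. The fifth member lay between 16.00 and 16.83 in T3 libraries, against 16.06 to 18.06 in DMSO libraries. Its difference of -0.91 passed the test (SE 0.18, limma adjusted p = 7.6e-05). For the 33 members without a call the 95% interval reached a median of 0.28 to either side of the difference. These differences were themselves up to 0.46 in size, so changes beyond 0.28 remain possible for some members.

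SR9243 against DMSO asks how the same transcripts differ after exposure to the compound that acts against LXR. With SR9243 52 members rose and 61 fell, and 77 did not pass the test. These are 59.5% called, where 29% of all tested genes were called, with higher calls in 27.4% of members against 15% of all tested genes and lower calls in 32.1% against 14.1%. Of the 52 called higher, 19 had a DMSO mean below the level at rank 200, and of the 61 called lower, 0 had an SR9243 mean below it. For genes ranked on DMSO libraries alone, higher calls covered 18.4%, nearer the 15% of all tested genes, and lower calls 37.9%. That ranking rests on a group of this same comparison and favours genes high in DMSO. Among the called members the increases were the larger changes, with a median of 0.70 (1.63-fold), while the decreases had a median of -0.22 (0.859-fold). Over all tested genes the called increases had a median of 0.48 and the called decreases a median of -0.39. These medians cover called genes alone, and a widely spread gene passes the test only with a larger difference. A called increase of at least 1 was found for 16 members (8.42%, against 1.32% of all tested genes) and a called decrease of that size for 0 members (0.672% of all tested genes). The median member differed by -0.10, and 86 members (45.3%) lay between -0.25 and 0, where 34.1% of all tested genes lay.

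Few members separated the groups fully. All SR9243 libraries lay above all DMSO libraries for 10 members (5.26%, against 1.19% of all tested genes) and below them for 1 member (0.526%, against 0.5%). That member, at rank 43, lay between 14.40 and 14.81 in SR9243 libraries, against 14.84 to 15.07 in DMSO libraries, and was singled out after its values were seen. The share of 5.26% is not free of the choice of members. How many of those 10 members had a DMSO mean below the level of the last rank is not given here. The number of members called lower depended on single libraries, while the median member difference stayed between -0.13 and -0.08 whichever library was left out. Lower calls covered 18.9% of the members without DMSO library 1, 19.5% without SR9243 library 7 and 20.5% without DMSO library 4. They covered 20.5% without SR9243 library 9 or 10, and 41.1% without DMSO library 7. The shares over all tested genes are not given for these fits. With equal summed levels of non-mitochondrial genes 49 members were called higher and 88 lower, where 10.9% of all tested genes were called higher and 20.1% lower. With means of libraries 1 to 5 and 6 to 10 as the units, 4 members (2.11%) were called lower, where 4.8% of all tested genes were, and 34 (17.9%) higher, where 6.83% were.

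The 2 largest increases with SR9243 were in ENSAOCG00000016750 and ENSAOCG00000010791, set against the same DMSO libraries as T3 was and again given with no test. ENSAOCG00000016750 lay between 14.29 and 15.05 with a median of 14.66 in SR9243 libraries, against 8.43 to 13.84 in DMSO libraries, which gave a difference of 3.42 (SE 0.41). ENSAOCG00000010791 lay between 12.88 and 13.73 with a median of 13.37 in SR9243 libraries, against 7.11 to 12.94 in DMSO libraries, which set them 2.39 apart (SE 0.49). The first did not overlap between the groups, and the second did, since its lowest SR9243 library was below its highest DMSO library. Without DMSO libraries 4 and 7 the differences were 2.87 and 1.80. Both SEs are pooled with narrow T3 libraries (SD 0.29 and 0.28) and understate the uncertainty here too.

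The 2 largest decreases with SR9243 were in ENSAOCG00000005623 and ENSAOCG00000000191. ENSAOCG00000005623 lay between 13.10 and 14.20 with a median of 13.39 in SR9243 libraries, against 13.74 to 15.32 in DMSO libraries, which gave a difference of -0.98 (SE 0.18, limma adjusted p = 1.2e-04). ENSAOCG00000000191, at rank 61, lay between 13.95 and 14.95 with a median of 14.27 in SR9243 libraries, against 14.47 to 15.86 with a median of 15.10 in DMSO libraries. Its difference was -0.79 (SE 0.13, limma adjusted p = 3.6e-05), and in both genes the groups overlapped, with SR9243 library 3 the highest of its group. T3 libraries stood at 12.86 to 13.26 for ENSAOCG00000000191. For both genes the SE is pooled with narrower T3 libraries (SD 0.16 and 0.13), so the SE and adjusted p understate the uncertainty of this comparison. Their SDs were 0.64 and 0.41 in DMSO and 0.33 and 0.28 in SR9243 libraries.

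**Figure D4:**
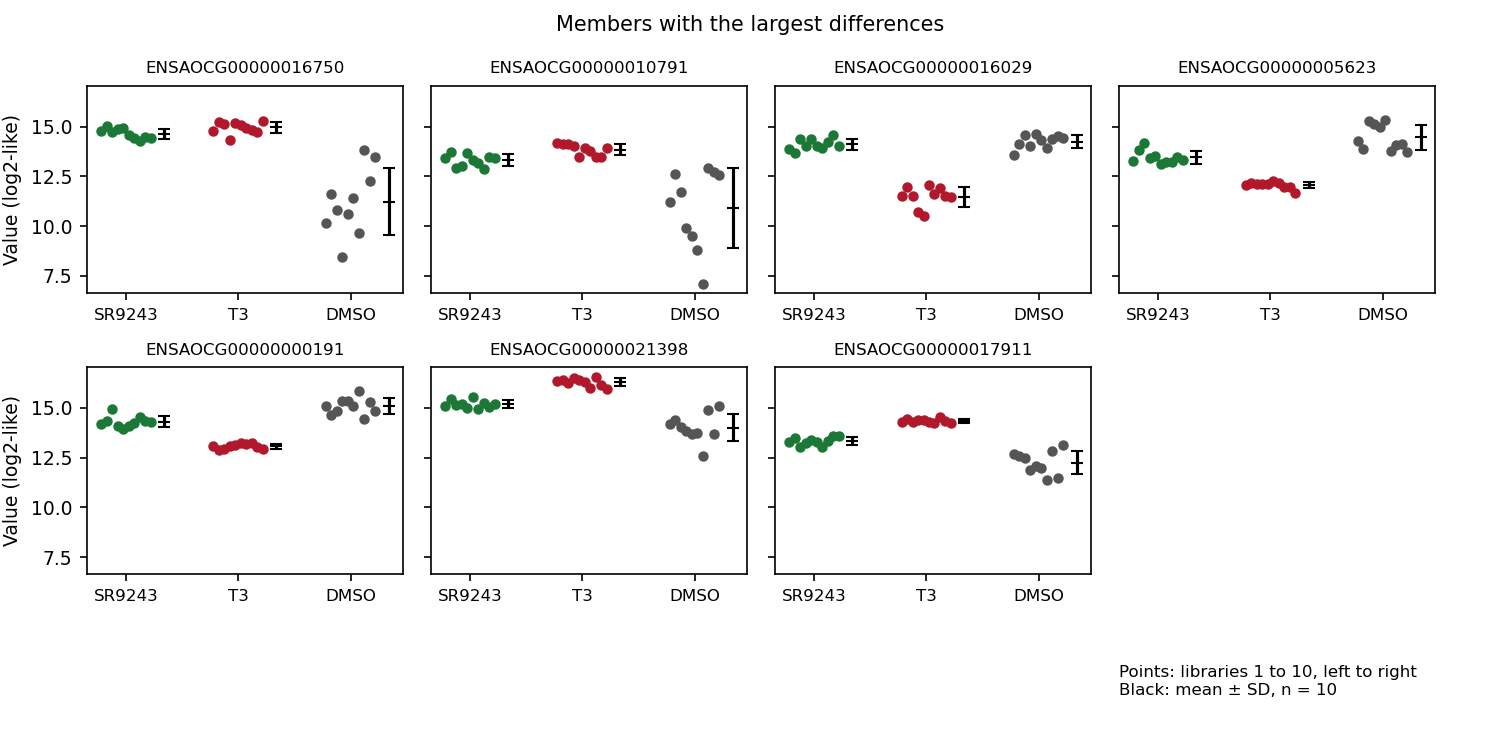
Deposited value (log2-like) in each library for the 7 members with the 2 largest called differences in each direction in the 3 comparisons; points run from library 1 to 10 within SR9243, T3 and DMSO, and bars give the mean ± SD (n = 10). ENSAOCG00000016750 and ENSAOCG00000010791 are spread widely in DMSO (SD 1.66 and 1.99) and narrowly in both treatments, while ENSAOCG00000016029 is low in T3 libraries alone.

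Of members 1 to 10, 5 rose with SR9243, 0 fell and 5 were not called. Over all tested genes 15% were called higher and 14.1% lower. The member with the highest mean lay between 18.20 and 18.73 with a median of 18.52 in SR9243 libraries, against 16.47 to 18.28 in DMSO libraries. The difference was 0.54 (SE 0.16, limma adjusted p = 0.00998), and the groups overlapped by a narrow margin. This difference too rests in part on DMSO library 7 at 16.47, with the next DMSO library at 17.83. That library was also the lowest DMSO library for members 4, 7 and 8, which rose as well, at 15.17, 15.24 and 12.42. For member 3, which rose too, DMSO library 6 was the lowest, at 17.11. Lower calls made up 20% of members 1 to 50, 28% of members 51 to 100 and 41.1% of members 101 to 190. Higher calls made up 34%, 26% and 24.4% of the same classes. Among the genes at ranks 201 to 400, 26.9% were called higher and 19.8% lower, with a median difference of 0.02.

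DMSO libraries were the most spread, and many of the members called higher were spread widely there. The median SD of a member was 0.18 among SR9243, 0.15 among T3 and 0.26 among DMSO libraries, and over all tested genes it was 0.23 in SR9243, 0.22 in T3 and 0.29 in DMSO libraries. Without DMSO library 7 the members' median SD in DMSO was 0.18. An SD of at least 0.5 was found for 0 members in SR9243, 3 in T3 and 50 in DMSO libraries. The share of all tested genes with such an SD is not given here. Of the 52 members called higher with SR9243, 34 were among these 50, and of the 61 called lower 1 was. Of the 39 members called higher with T3, 28 were among them, and of the 118 called lower 7 were. The median DMSO SD was 0.61 for members called higher and 0.15 for members called lower with SR9243, and 0.67 and 0.16 for those with T3. A low DMSO library both widens the DMSO SD and lowers the DMSO mean, so part of this overlap is built in.

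DMSO library 7 was the lowest DMSO library for 105 of the 190 members. The share over all tested genes is not given here, so this count cannot be read as particular to the members. With SR9243 it was the lowest for 42 of the 52 members called higher, 23 of the 61 called lower and 40 of the 77 not called. With T3 it was the lowest for 28 of the 39 called higher, 48 of the 118 called lower and 29 of the 33 not called. Without that library, 52 members were called higher with SR9243, of which 51 were among those called with it, and 38 with T3, of which 37 were. Lower calls numbered 78 with SR9243 and 132 with T3 without it, and included all 61 and all 118 found with it. The shares over all tested genes are not given for that fit. Without DMSO libraries 4 and 7, 51 members were called higher and 74 lower with SR9243, where 16.9% and 16.4% of all tested genes were. With T3 these were 38 higher and 129 lower, where 25.3% and 26.3% of all tested genes were. An SD of at least 1 in DMSO was found for 10 members, of which library 7 was the lowest in 9 and library 4 in 1. Their SD was between 0.13 and 0.42 in SR9243 and between 0.15 and 0.48 in T3 libraries.

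**Figure D5:**
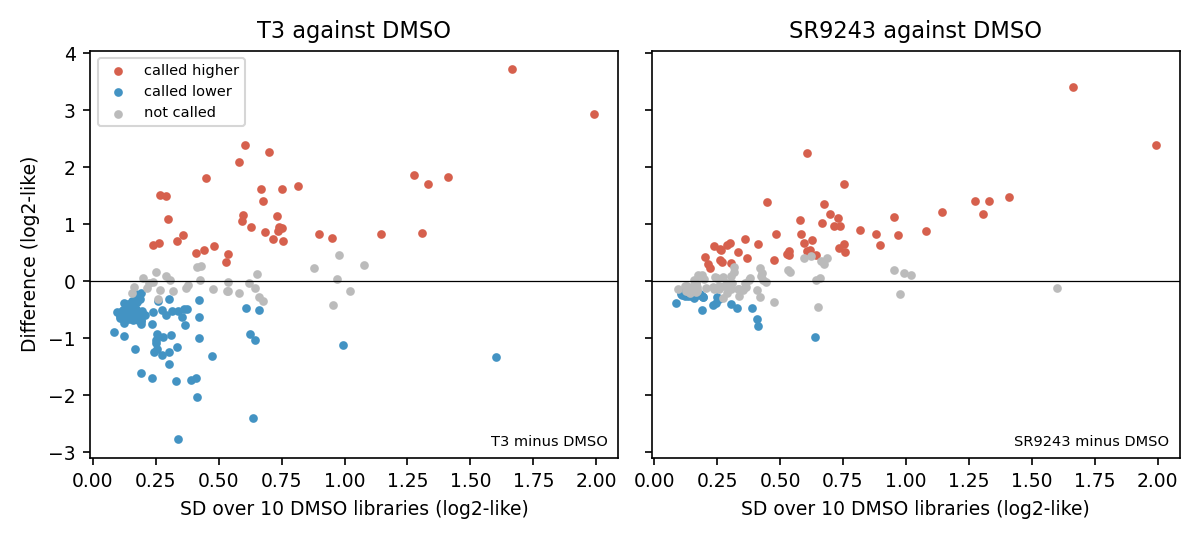
Difference from DMSO (vertical axis, log2-like) against the SD over the 10 DMSO libraries (horizontal axis, log2-like) for the 190 members with T3, left, and SR9243, right; red points were called higher, blue points called lower and grey points not called (limma). Most red points lie at a DMSO SD of 0.5 or more (28 of 39 with T3 and 34 of 52 with SR9243), and most blue points lie at lower SD.

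SR9243 against T3 asks where the treatments differ from each other. Of the members, 138 were called higher, 12 lower and 40 not called. These are 78.9% called, where 34.7% of all tested genes were called, with higher calls in 72.6% of members against 17.1% of all tested genes and lower calls in 6.32% against 17.5%. Of the 138 called higher, 27 had a T3 mean below the level at rank 200. The spread in this test was pooled over all 3 groups, so DMSO libraries bear on which members passed. Of the 40 not called, 27 had an SD of at least 0.5 in DMSO. So did 17 of the 138 called higher and 6 of the 12 called lower. For genes ranked on DMSO libraries alone, 81.1% were called higher and 2.11% lower. With means of libraries 1 to 5 and 6 to 10 as the units, 39 members (20.5%) were called higher, where 5.72% of all tested genes were, and 12 lower (6.32%), where 8.21% were. The median member differed by 0.37 (1.30-fold), while the median over all tested genes was 0.00. A difference from 0.25 up to 0.75 was found for 111 members (58.4%), where 19.3% of all tested genes lay. With equal summed levels of non-mitochondrial genes 117 members (61.6%) were called higher, where 6.34% of all tested genes were, and 24 (12.6%) lower, where 35.8% were. With library medians set equal the median member differed by 0.40, and the median over all tested genes was 0.03. With quantile normalisation, which can shrink a shift shared by the highest genes, the median member differed by 0.11. In that setting 69 members (36.3%) were called higher, where 17.8% of all tested genes were, and 29 (15.3%) lower, which was close to the 15.6% of all tested genes.

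All SR9243 libraries lay above all T3 libraries for 60 members (31.6%, against 2.81% of all tested genes) and below them for 5 members (2.63%, against 3.26%). Called differences of at least 1 were found for 18 members higher with SR9243 (9.47%, against 0.955% of all tested genes) and 2 lower (1.05%, against 1.74%). These shares are not free of the choice of members either. Both group means reached the level of the last rank for 111 of the 138 members called higher and 10 of the 12 called lower. How many of the large or non-overlapping differences these include is not given here. Of members 1 to 10, 9 were called higher with SR9243, and 0 lower, where 17.1% and 17.5% of all tested genes were. At ranks 201 to 400, 50.3% of genes were called higher with SR9243 and 13.2% lower, with a median difference of 0.27.

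The 2 largest differences in favour of SR9243 were in ENSAOCG00000016029 and ENSAOCG00000005623. ENSAOCG00000016029 lay between 13.65 and 14.56 with a median of 14.03 in SR9243 libraries, against 10.51 to 12.05 in T3 libraries, which set them 2.63 apart (SE 0.16), given with no test because of the low T3 means named above. The treatments did not overlap, and against DMSO the SR9243 difference of this gene was -0.14 with a 95% interval from -0.47 to 0.20 (limma adjusted p = 0.570). ENSAOCG00000005623 lay between 13.10 and 14.20 in SR9243 libraries, against 11.68 to 12.27 in T3 libraries, which gave a difference of 1.41 (SE 0.18), again with no test and no overlap.

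The 2 largest differences in favour of T3 were in ENSAOCG00000021398 and ENSAOCG00000017911, at ranks 31 and 126. ENSAOCG00000021398 lay between 14.97 and 15.56 with a median of 15.17 in SR9243 libraries, against 15.97 to 16.57 with a median of 16.33 in T3 libraries. The difference was -1.10 (SE 0.19, limma adjusted p = 3.0e-05), and DMSO libraries ran from 12.61 to 15.10. ENSAOCG00000017911 lay between 13.02 and 13.61 with a median of 13.32 in SR9243 libraries, against 14.23 to 14.55 with a median of 14.32 in T3 libraries. Its difference was -1.02 (SE 0.15, limma adjusted p = 6.4e-06), with DMSO libraries at 11.38 to 13.13. In both genes the treatments did not overlap.

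The comparison was repeated within subsets of 5 libraries, first SR9243 libraries 6 to 10 against T3 libraries 1 to 5. Between these, 85 members (44.7%) were called higher with SR9243, where 8.84% of all tested genes were, and 17 (8.95%) lower, where 9.13% were, with a median difference of 0.21. Between SR9243 libraries 1 to 5 and T3 libraries 6 to 10, 145 members (76.3%) were called higher, where 17.3% of all tested genes were, and 20 (10.5%) lower, where 19.8% were, with a median difference of 0.52. Because the subsets of 5 libraries were chosen with these data known, their counts and medians are a description. The difference between the subsets was not tested.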

How the data were processed

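RNA was measured by stranded, poly(A)-selected sequencing with paired-end reads in 30 libraries, 10 per treatment, grouped by sample title. Per the submitters' processing notes, FastQC 0.11.8 and kallisto 0.46.1 were used; build, annotation and normalising tool were not given in the sources used here. Here the authors deposited log2-like, variance-stabilised normalised counts for 22816 genes, from 2.88 to 18.7. Library totals are not in the table, so depth is unknown, and no interval based on depth was computed. 0 columns were left without a sample.

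The test covered 22615 genes, after 201 were removed because fewer than 10 libraries exceeded the lowest value. A single limma 3.58.1 model (R 4.3.3, trended eBayes) was fitted to all 3 groups, two-sided, with Benjamini-Hochberg adjustment over all tested genes and a threshold of 0.05; it was tested on simulated data. Each SE is pooled over the 3 groups. For a gene spread most widely in DMSO it can understate the uncertainty of a comparison with DMSO. Summaries used Python 3.11.15 with pandas 2.3.3. The reference table (28286 genes) held 0 Ensembl IDs. Named members are the 2 largest called differences in each direction per comparison. The members, lists and alternatives were chosen with earlier results of these data known. The planned classes of genes by symbol could not be applied. Libraries of a group correlated at 0.987 or less, and none was counted as a duplicate. Alternatives covered filters, scalings, variance models, library weights, an exact rank test, a replicate block, the unit of replication, libraries left out and the choice of members.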

Additional observations from a re-analysis of the deposited data

Results flagged for a closer look

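Single libraries of 1 group were checked for a gap to their neighbours over 27 sets of 10 values, a check that flags about 1 in 20 such sets by chance. DMSO library 7 stood apart in the members' share of the summed linear level, at 33.4% with the next DMSO library at 40.3%. The same library stood apart for the member with the highest mean, at 16.47 with the next DMSO library at 17.83. For ENSAOCG00000005623, T3 library 10 was the lowest at 11.68, with the next T3 library at 11.95, a gap just past the limit. Over all 190 members, 50 had a low value apart from the rest in DMSO, of which library 7 accounted for 49, and 2 had a high value apart, both in library 7. The check was not given for all tested genes. The same check marked 8 low and 2 high values in T3 libraries and 0 in SR9243 libraries.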

How the results depend on the processing

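The percentages below are shares of the members called. For fits that leave out a single library, shares over all tested genes are not given here. For T3 against DMSO, members ranked on DMSO libraries alone had 11.1% higher calls; leaving out single libraries gave 80% to 89.5% called, 19.5% to 21.6% higher and 60% to 69.5% lower. For SR9243 against DMSO, means of 5 libraries as the units gave 20% called, 17.9% higher (6.83% of all tested genes) and 2.11% lower (4.8%). A fit of these groups alone gave 38.9% called and 15.8% lower, where 13% of all tested genes were called higher and 11.5% lower. Leaving out single libraries gave 45.3% to 68.4% called, 24.2% to 27.9% higher and 18.9% to 41.1% lower. For SR9243 against T3, quantile normalisation gave 51.6% called, 36.3% higher (17.8% of all tested genes) and 15.3% lower (15.6%). Means of 5 libraries gave 26.8% called and 20.5% higher (5.72% of all tested genes). SR9243 libraries 6 to 10 against T3 libraries 1 to 5 gave 44.7% higher (8.84% of all tested genes), and the other subsets 10.5% lower (19.8%). Lower calls were 12.6% with equal summed linear levels of non-mitochondrial genes, where 35.8% of all tested genes were called lower. They were 10% with array weights (22.9% of all tested genes), 12.6% with these groups alone (21%) and 12.1% with the rank test (19.5%). Without DMSO libraries 4 and 7 they were 10% (20.8%), and they were also 10% without DMSO library 7 alone. They were 2.11% for members ranked on DMSO alone, 2.20% for the top 100 and 9.82% for the top 400. Leaving out single libraries gave 74.7% to 85.8% called, 68.9% to 75.8% higher and 5.79% to 10% lower. The cause of these shifts was not tested. The members' share was 46.4% in SR9243 and 38.7% in T3 without mitochondrial genes in the sum, and 35.4% in T3 for members ranked on DMSO alone; leaving out single libraries gave 43.9% to 44.5% in SR9243, 36.7% to 37.2% in T3 and 40.4% to 41.6% in DMSO. Same-numbered libraries deviated together (correlation above 0.1) in 7 of 30 pairs, of which 5 were among the 10 of T3 and DMSO. The correlations ran from -0.20 to 0.12 for SR9243 and DMSO, and from -0.09 to 0.17 for T3 and DMSO. For SR9243 and T3 they ran from -0.28 to 0.18. The numbers were therefore not used as pairs, and what they stand for is not known. With the replicate block (library number), 83.7% of members were called for T3 against DMSO, 63.7% for SR9243 against DMSO and 78.4% for SR9243 against T3. In that fit 24% of all tested genes were called higher and 25.2% lower for T3 against DMSO. For SR9243 against DMSO these were 14.1% and 13.3%, and for SR9243 against T3 16.4% and 16.6%. The block changed no count of members by over 1.5 times. Equal summed linear levels of non-mitochondrial genes moved the median of all genes to 0.09 for T3 against DMSO, -0.08 for SR9243 against DMSO and -0.17 for SR9243 against T3, where the median member stood at -0.40, -0.18 and 0.20. The median member difference for T3 against DMSO was -0.25 with quantile normalisation and -0.35 in the top 400. It changed sign for SR9243 against DMSO in the top 100, at 0.03. The 12 named differences kept their direction in every setting run. With the depth unknown, no detection limit can be given.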
